A study of Mus musculus with 5 samples.

Results

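The genes Stra6, Aldh1a2, Dhrs3, Cyp26a1, Crabp1, Crabp2, Rara, Rarb and Rarg of the retinoic acid pathway were followed in single-cell RNA sequencing of differentiating mouse epiblast stem cells (EpiSCs, pluripotent cells derived from the post-implantation epiblast). These 9 of the 32285 genes in the count matrices were taken by symbol, and earlier results of these data were known when they were chosen. All 9 had transcripts in each of the 5 libraries. A single wild-type EpiSC line was differentiated for 3 days in N2B27 medium, and every culture received 1 µM CHIR99201 (Chi, an agonist of Wnt signaling) together with 8 ng/ml BMP4. The libraries differed in FGF signaling, with 0, 0.75, 3 or 12 ng/ml FGF2 or 30 nM of the FGF receptor inhibitor AZD4547 (FGFRi). There was 1 library per condition, and the sources used here state no FGF2 dose for the FGFRi library. They also name no retinoid among the added factors, and do not give the contents of the supplements in N2B27 medium. Whether these supplements provided a retinoid is therefore not known here.

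Retinoic acid is made from retinol, which STRA6 imports from its carrier in the blood, and which is oxidized first to retinaldehyde and then, by ALDH1A2, to retinoic acid. DHRS3 reduces retinaldehyde back to retinol, CYP26A1 hydroxylates retinoic acid and so removes it, and the proteins CRABP1 and CRABP2 bind it in the cytoplasm. The receptors RARA, RARB and RARG pair with retinoid X receptors on DNA, typically on direct repeats of a short motif. In the posterior end of the embryo Cyp26a1 is known from the primitive streak and tail bud, whereas Aldh1a2 is known from the anterior presomitic mesoderm, the somites and the lateral plate, so that the presomitic mesoderm lies between a region of breakdown and a region of synthesis.

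The receptor motif was searched in promoter windows of 300 bases around RefSeq start sites (GRCm38.p6, 250 bases before to 50 after the start), on both strands, as NGNTCA with A or G as its first base and G or T as the other N. A window was available for 8 of the 9 genes, all but Crabp2. A gene could have more than 1 window. A direct repeat of the motif with 5 bases between the copies occurred in 32 of all 32851 windows (0.0974%). These belonged to 31 of 27025 genes (0.115%), and among the 8 genes the repeat occurred in Cyp26a1 and Rarb. The sequences before both start sites are shown because these genes stood at opposite ends in the FGFRi library, Cyp26a1 at its lowest level of the 5 libraries and Rarb at its highest. Capitals mark the repeat, which lies on the gene's own strand in Rarb (chr14:16575508-16575589, minus strand) and on the opposite strand in Cyp26a1 (chr19:37697716-37697797, plus strand).
Rarb: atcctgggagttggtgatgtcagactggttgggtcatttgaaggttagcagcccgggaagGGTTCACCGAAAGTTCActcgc
Cyp26a1: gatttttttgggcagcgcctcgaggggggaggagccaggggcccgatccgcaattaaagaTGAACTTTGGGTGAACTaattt
Read on the opposite strand, the Cyp26a1 repeat is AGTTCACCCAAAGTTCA. Repeats spaced by 2 or by 1 base occurred in no window of the 8 genes, against 0.311% and 0.263% of all genes with a window. At least 1 copy of the motif occurred in 5 of the 8 genes (Cyp26a1, Rara, Rarb, Rarg and Stra6) and in 46.9% of all genes with a window. These matches describe sequence, and no binding was measured.

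The 10653 cells retained, of 15375 deposited barcodes, held 321559590 unique molecular identifiers (UMIs, each standing for a captured transcript), with a median per cell between 24408 UMIs (FGFRi) and 29661.5 UMIs (0 ng/ml FGF2). Any pair of libraries shared at most 2 of the retained barcodes. Levels (CPM) are the UMIs of a gene over all UMIs of a library or class of cells, scaled to 1000000. Ranges in brackets after a level or ratio are exact 95% intervals, which cover counting error only. Conditions could not be tested against each other for want of replicates, and in place of a test a gene was counted as higher or lower where it reached 10 CPM in either library and the levels differed at least 2-fold. The composition of the libraries differed strongly. The 6 streak and nascent mesoderm markers summed to 4.70 CPM (FGFRi), 66.5 CPM (0 ng/ml FGF2) and 448 CPM (12 ng/ml), and the 8 presomitic and somitic markers to 8.22, 53.1 and 242 CPM. The sum of the 5 surface and extraembryonic ectoderm markers went the other way, from 2420 to 1981 and 648 CPM. So did that of the 7 lateral plate and extraembryonic mesoderm markers, from 151 to 102 and 41.3 CPM. Of these 7 genes, 4 were highest with the FGFRi and 1 each at 0, 3 and 12 ng/ml. The 3 neural markers summed to at most 1.73 CPM and the 3 endoderm markers to at most 3.43 CPM in any library, while the 6 markers of the epiblast, from which the line derives, summed to between 48.6 and 86.1 CPM. In libraries of mixed cells, fewer cells of a type and less RNA per cell cannot be told apart, and this holds for each level given over whole libraries.

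Over whole libraries, Cyp26a1 (chr19:37697798-37701536, GRCm38) was higher at each dose of FGF2 than at the one before, up to 3 ng/ml. Its level was 1.99 CPM with the FGFRi, and 9.96, 20.7, 35.9 and 37.8 CPM from the lowest to the highest FGF2 dose. Each step up to 3 ng/ml was larger than counting error, and the last step, a ratio of 1.05 (0.996 to 1.11), was not. From 0 to 12 ng/ml the ratio was 3.80 (3.46 to 4.16). Of the 5 genes that reached 10 CPM in either of these libraries, Cyp26a1 was the 1 counted as higher, and none was lower, against 1.87% higher and 4.04% lower among all 8237 genes that reached it. Cyp26a1 was also the 1 gene of 5 counted as higher between 0 and 0.75 ng/ml, with a background of 0.308%. A Cyp26a1 UMI was found in 3.998% of FGFRi-treated cells and in 12.1%, 21.4%, 31.2% and 31.3% of cells along the doses (2.17%, 6.37%, 12.2%, 18.3% and 18.5% with each cell thinned to 10000 UMIs, leaving out the 9 to 39 shallower cells of a library). Without FGF2 the share was 1.36% among cells with Cdh1 (E-cadherin) but no Cdh2 (N-cadherin) UMIs, whose median depth was 27733 UMIs. No gene of the 9 was counted from 0.75 to 3 ng/ml or from 3 to 12 ng/ml, where the background in either direction was 0.859% and 0.0883%.

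**Figure D1:**
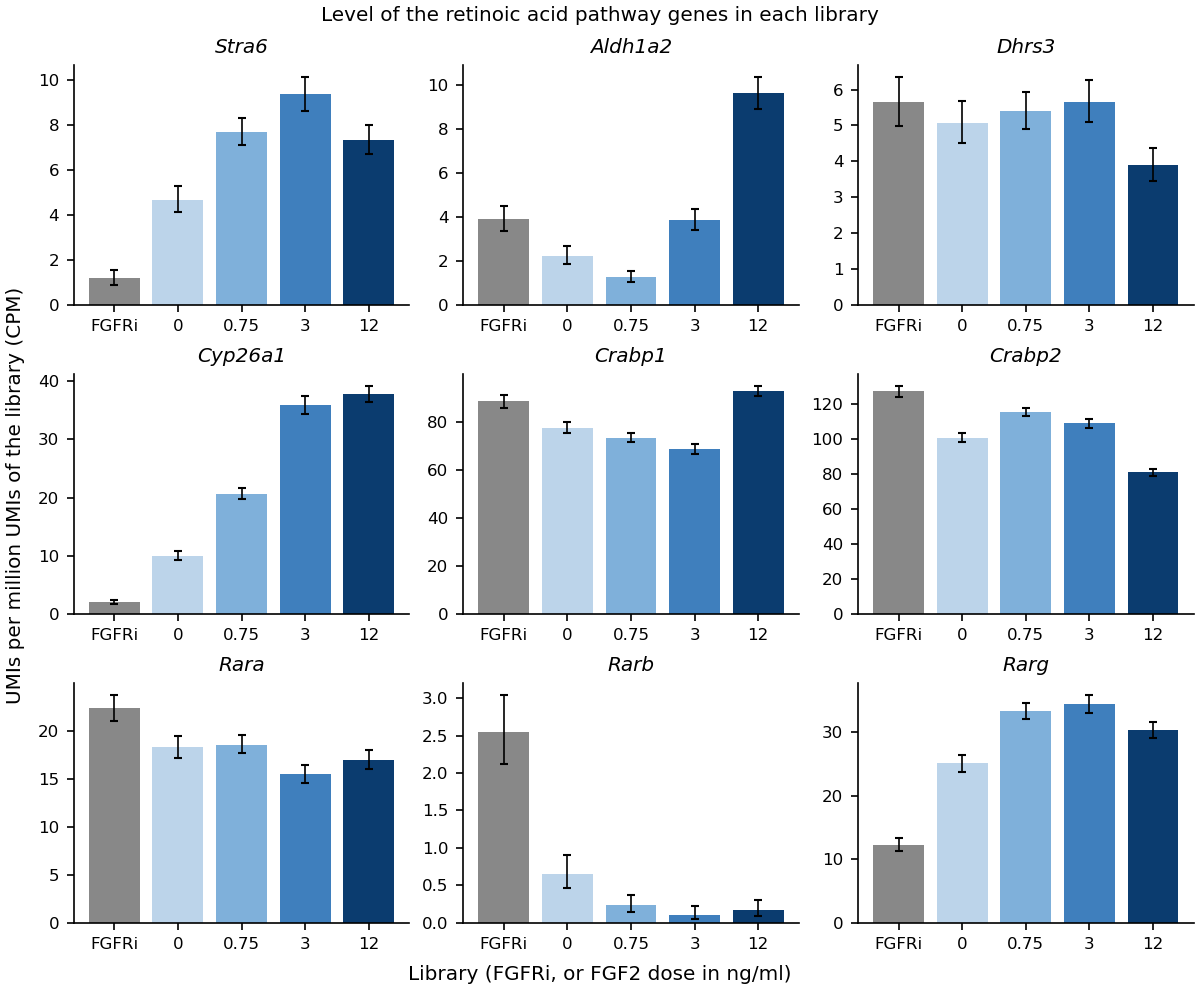
Level of each of the 9 genes (y axis, CPM, starting at 0 with its own scale in each panel) in the 5 libraries, ordered from the FGFRi to the highest FGF2 dose (x axis); bars are the library's level and error bars exact 95% Poisson intervals, with 1 library per condition. Cyp26a1 was between 1.99 and 37.8 CPM and was lowest with the FGFRi, where Rarb, at 2.55 CPM, was highest.

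The uptake gene Stra6 (chr9:58063788-58153996) was also lowest in the FGFRi library, at 1.17 CPM, and along the FGF2 doses was at 4.66, 7.69, 9.36 and 7.32 CPM. It thus peaked at 3 ng/ml, with a ratio of 1.22 (1.09 to 1.36) to the dose before, and the levels at 0.75 and 12 ng/ml had overlapping intervals. A Stra6 UMI was found in 2.88% of FGFRi-treated cells and in 11.1%, 16.3%, 20.1% and 16.9% of cells along the FGF2 doses. When each cell was thinned to 10000 UMIs the shares were 1.08%, 4.53%, 6.87%, 8.75% and 6.51%, in the same order. In Cdh1-positive Cdh2-negative cells the full-depth share was between 1.36% and 2.94% along the doses. Stra6 overlaps Gm16131 on the same strand, and reads from the shared stretch could have been assigned to either gene or to neither.

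Aldh1a2 (chr9:71215789-71296243), a synthesis gene, had a trough and not a gradient. Its levels were 3.89 CPM with the FGFRi and 2.24, 1.28, 3.84 and 9.62 CPM in order of the FGF2 dose. The levels with the FGFRi and at 3 ng/ml did not differ beyond their intervals, and the level at 12 ng/ml was 2.51 times (2.16 to 2.91) that at 3 ng/ml. All stood below 10 CPM, outside the rule of size, and few cells carried the transcript. The 681 Aldh1a2 UMIs at 12 ng/ml lay in 159 of 2406 cells, and 43 of these had at least 5 UMIs and the highest 33. In the FGFRi library 186 UMIs lay in 68 cells, and without FGF2 127 UMIs lay in 46 cells. The share of cells with an Aldh1a2 UMI was 3.998%, 2.71%, 1.72%, 3.25% and 6.61% from the FGFRi library to the highest dose, and in the class of cells with the lowest share it was between 0.871% and 1.18%. The log2 ratio of the level at 12 ng/ml to that without FGF2 was 2.11 by UMIs and 2.76 with each cell thinned to 10000 UMIs.

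Dhrs3 (chr4:144892827-144928209), which encodes the reductase that returns retinaldehyde to retinol, was nearly even. Its level was 5.65 CPM with the FGFRi and 5.07, 5.40 and 5.65 CPM at the 3 lower FGF2 doses, with overlapping intervals, and the 3.89 CPM (3.44 to 4.37) at 12 ng/ml stood below these 4 libraries.

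The binding protein genes Crabp1 (chr9:54764748-54773110) and Crabp2 (chr3:87948666-87953376) had high levels in every library. The FGFRi library had 88.4 CPM of Crabp1, and the FGF2 libraries, by increasing dose, had 77.5, 73.4, 68.5 and 92.8 CPM. Crabp2 stood at 128 CPM in the FGFRi library and at 101, 115, 109 and 81.1 CPM by increasing dose. The pair thus moved in opposite directions from 3 to 12 ng/ml, where the ratio was 1.35 (1.30 to 1.41) for Crabp1 and 0.743 (0.718 to 0.770) for Crabp2, although neither came near a 2-fold difference.

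Of the receptor genes, Rarg (chr15:102234938-102257517) had 12.2 CPM with the FGFRi, then 25.1, 33.3, 34.4 and 30.3 CPM as the FGF2 dose increased. The levels at 0.75 and 3 ng/ml did not differ beyond their intervals. From the FGFRi library to 0 ng/ml FGF2 the ratio was 2.05 (1.86 to 2.26), which made Rarg the 1 of 4 genes counted as higher in that comparison, with a background of 2.62%. It stood just inside the limit and was no longer counted when cells with more than 5% mitochondrial UMIs were left out. Cyp26a1, at 9.96 CPM, stood just outside it, with a ratio of 5.02 (4.03 to 6.30).

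Rara (chr11:98927818-98974942) was the most even receptor gene, at 22.4, 18.3, 18.6, 15.5 and 17.0 CPM from the FGFRi library along the FGF2 doses, and the levels at 0 and 0.75 ng/ml and at 0 and 12 ng/ml did not differ beyond counting error. Rarb (chr14:16430839-16819156) was scarce. It had 122 UMIs in the FGFRi library (2.55 CPM), 37 without FGF2 (0.651 CPM) and 19, 7 and 12 UMIs at 0.75, 3 and 12 ng/ml (0.233, 0.108 and 0.170 CPM). Without FGF2 it was 3.92-fold (2.69 to 5.82) lower than with the FGFRi, and the levels at 0.75, 3 and 12 ng/ml could not be separated at this depth. The FGFRi UMIs were spread over 114 of 1701 cells with at most 2 in a cell. The share of cells with a UMI, 6.70%, was 5.67% even in the E-cadherin-positive N-cadherin-negative cells, where it was lowest.

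The cells were then divided by whether they held a UMI of T, the streak and nascent mesoderm factor Brachyury, or of Tbx6, a factor of presomitic mesoderm. The T-positive cells numbered 22 of 1701 with the FGFRi and 417 of 1696, 1291 of 2725, 1583 of 2125 and 1977 of 2406 along the FGF2 doses. The Tbx6-positive cells numbered 11, 135, 437, 767 and 1196 in the same order. Differences between the classes were tested with edgeR's quasi-likelihood test on UMIs summed per library and class over the 4 FGF2 libraries, with the library as a block and Benjamini-Hochberg adjustment over all genes. Those libraries differ in dose, so that the test sets the mean difference over the doses against its spread between them. It does not test whether the difference changes with dose. Classes drawn by detection differ in depth, with medians of 31208 and 29166 UMIs in T-positive and T-negative cells without FGF2 and 27663 and 25927 UMIs at 12 ng/ml.

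Cyp26a1 was concentrated in T-positive cells. Its level in T-positive cells was 34.0, 38.5, 46.4 and 44.2 CPM along the FGF2 doses. In T-negative cells it was 1.77, 3.29, 3.08 and 6.71 CPM. The classes did not overlap at any dose, and T-positive cells held between 86.7% and 97.9% of the Cyp26a1 UMIs of a library. Of all UMIs they held between 25.4% (without FGF2) and 82.9% (12 ng/ml). The log2 difference was 3.61 ± 0.20 (SE, 4 libraries), with an adjusted p of 1.34e-05, and it was in the same direction in 4 of 4 libraries. It was smaller, at 2.23 ± 0.29 (adjusted p = 0.00189), when cells were thinned to 10000 UMIs before they were assigned to a class. Of the 9 genes, 5 were higher in T-positive cells, against 21.1% of the 15339 genes tested, and 1 was lower, against 22.7%. After Cyp26a1, the higher genes were Stra6 (log2 difference 1.53 ± 0.27, adjusted p = 0.00269), Crabp2 (0.80 ± 0.08, adjusted p = 0.000149), Dhrs3 (0.54 ± 0.11, adjusted p = 0.00601) and Crabp1 (0.47 ± 0.05, adjusted p = 0.000427). The Stra6 difference was uneven, with ratios of T-positive to T-negative cells of 6.01, 3.12, 2.32 and 1.43 along the FGF2 doses. It was smaller and only just past the threshold, at 0.94 ± 0.28 (adjusted p = 0.0459), with classes from cells thinned to 10000 UMIs. The Crabp1 difference was lost, at a log2 difference of -0.04, when cells were thinned to 10000 UMIs before they were assigned to a class. Aldh1a2 was lower (-0.72 ± 0.16, adjusted p = 0.00726), but not past the threshold when the 5% of cells with most UMIs were left out (adjusted p = 0.0725), nor at the stricter mitochondrial limit (adjusted p = 0.112). The receptor genes Rara, Rarb and Rarg did not pass, with log2 differences of -0.12 ± 0.09, -1.01 ± 0.40 and 0.33 ± 0.13. Rarg passed when the 3 ng/ml library was left out (0.48 ± 0.12, adjusted p = 0.0213). Its ratio of T-positive to T-negative cells was 1.82 (1.63 to 2.03) without FGF2, then 1.32, 0.937 and 1.09 in order of dose.

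The genes that differed between Tbx6-positive and Tbx6-negative cells were not led by Cyp26a1 but by Crabp1. Crabp1 was at 176, 186, 138 and 158 CPM in Tbx6-positive cells along the FGF2 doses. In Tbx6-negative cells it was at 68.5, 51.5, 27.6 and 29.0 CPM, below the other class in each library. The log2 difference was 2.01 ± 0.17 (SE, 4 libraries), with an adjusted p of 0.000204, and it was in the same direction in 4 of 4 libraries. Stra6 (1.11 ± 0.17, adjusted p = 0.00248) and Crabp2 (0.42 ± 0.06, adjusted p = 0.00156) were also higher, which made 3 of the 8 genes tested, against 19.2% of all 14978 genes tested, and none was lower, against 22%. Cyp26a1 (0.33 ± 0.15, adjusted p = 0.126), Rara, Rarg and Dhrs3 did not pass, and Rarb was too scarce to be tested. The libraries differed for Cyp26a1, whose ratio of Tbx6-positive to Tbx6-negative cells was 2.05 (1.62 to 2.58) without FGF2. It was 1.59 (1.42 to 1.78), 1.02 and 0.980 at 0.75, 3 and 12 ng/ml. For Rarg the ratio was 1.59 (1.35 to 1.86) without FGF2, then 1.12, 0.964 and 0.933.

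**Figure D2:**
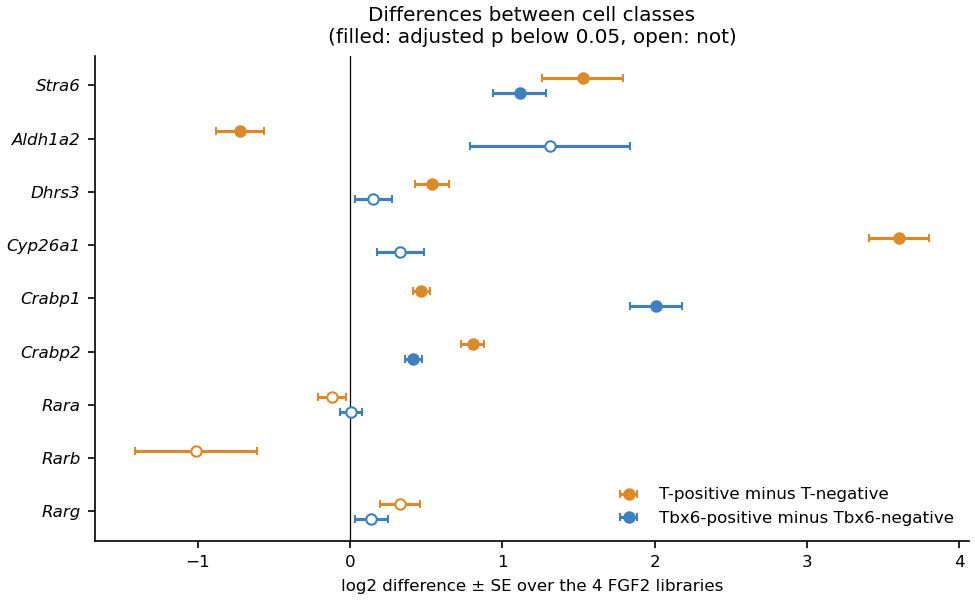
Log2 difference in level (x axis, positive minus negative cells) of each gene (y axis) between T-positive and T-negative cells (orange) and between Tbx6-positive and Tbx6-negative cells (blue), from edgeR over the 4 FGF2 libraries; bars are SE, filled points have an adjusted p below 0.05 and open points do not. Cyp26a1 leads the T comparison at 3.61, Crabp1 leads the Tbx6 comparison at 2.01, and Rarb was tested for T only.

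Aldh1a2 did not pass the Tbx6 test (1.31 ± 0.53, adjusted p = 0.0827), and the libraries differed in direction. Without FGF2 it was at 0.211 CPM in Tbx6-positive and 2.42 CPM in Tbx6-negative cells, the first resting on 1 UMI. With FGF2 it was at 2.03, 5.07 and 17.0 CPM in Tbx6-positive cells and at 1.13, 3.12 and 2.42 CPM in Tbx6-negative cells, in order of dose. The level in Tbx6-negative cells was thus the same with 0 and 12 ng/ml FGF2. Tbx6-positive cells held 0.787% of the library's Aldh1a2 UMIs without FGF2, where they held 8.34% of all UMIs. At 12 ng/ml they held 87.2% of the Aldh1a2 UMIs and 49.2% of all UMIs. With the library without FGF2 left out, the test passed (log2 difference 1.69, adjusted p = 0.00605). With the 12 ng/ml library left out, the difference was 0.37 (adjusted p = 0.565).

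Both factors were combined to divide the cells into 4 classes. At 12 ng/ml FGF2 the 122 T-negative Tbx6-positive cells had 41.3 CPM (34.4 to 49.3) of Aldh1a2, the 1074 T-positive Tbx6-positive cells had 14.8 CPM (13.5 to 16.2), and the T-positive Tbx6-negative cells had 2.09 CPM. Cyp26a1 ran the other way through these classes, at 3.36, 40.6 and 48.5 CPM. In the remaining class, the 307 T-negative Tbx6-negative cells, both were low, with 3.41 CPM of Aldh1a2 and 7.81 CPM of Cyp26a1. The ratio of T-negative to T-positive cells among the Tbx6-positive was 2.80 (2.28 to 3.42) for Aldh1a2 and 0.0828 (0.0396 to 0.153) for Cyp26a1. Crabp1 was highest in the class where Aldh1a2 was highest, at 236 CPM, against 151 CPM in T-positive Tbx6-positive and 29.1 CPM in T-positive Tbx6-negative cells. At 0.75 and 3 ng/ml, with 65 and 74 T-negative Tbx6-positive cells and 6 and 5 Aldh1a2 UMIs in them, Aldh1a2 was at 3.21 CPM (1.18 to 6.98) and 2.29 CPM (0.744 to 5.35) there, below the interval at 12 ng/ml. Among Tbx6-positive cells, the Aldh1a2 ratio of T-negative to T-positive cells was 1.74 (0.576 to 4.47) at 0.75 ng/ml. At 3 ng/ml it was 0.428 (0.136 to 1.03), so that the order at 12 ng/ml was not seen beyond counting error at these doses. Of the 122 T-negative Tbx6-positive cells at 12 ng/ml, 6 held at least 5 Aldh1a2 UMIs. The intervals take UMIs as independent and are too narrow where UMIs gather in few cells. They do not measure the spread between cells or cultures.

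**Figure D3:**
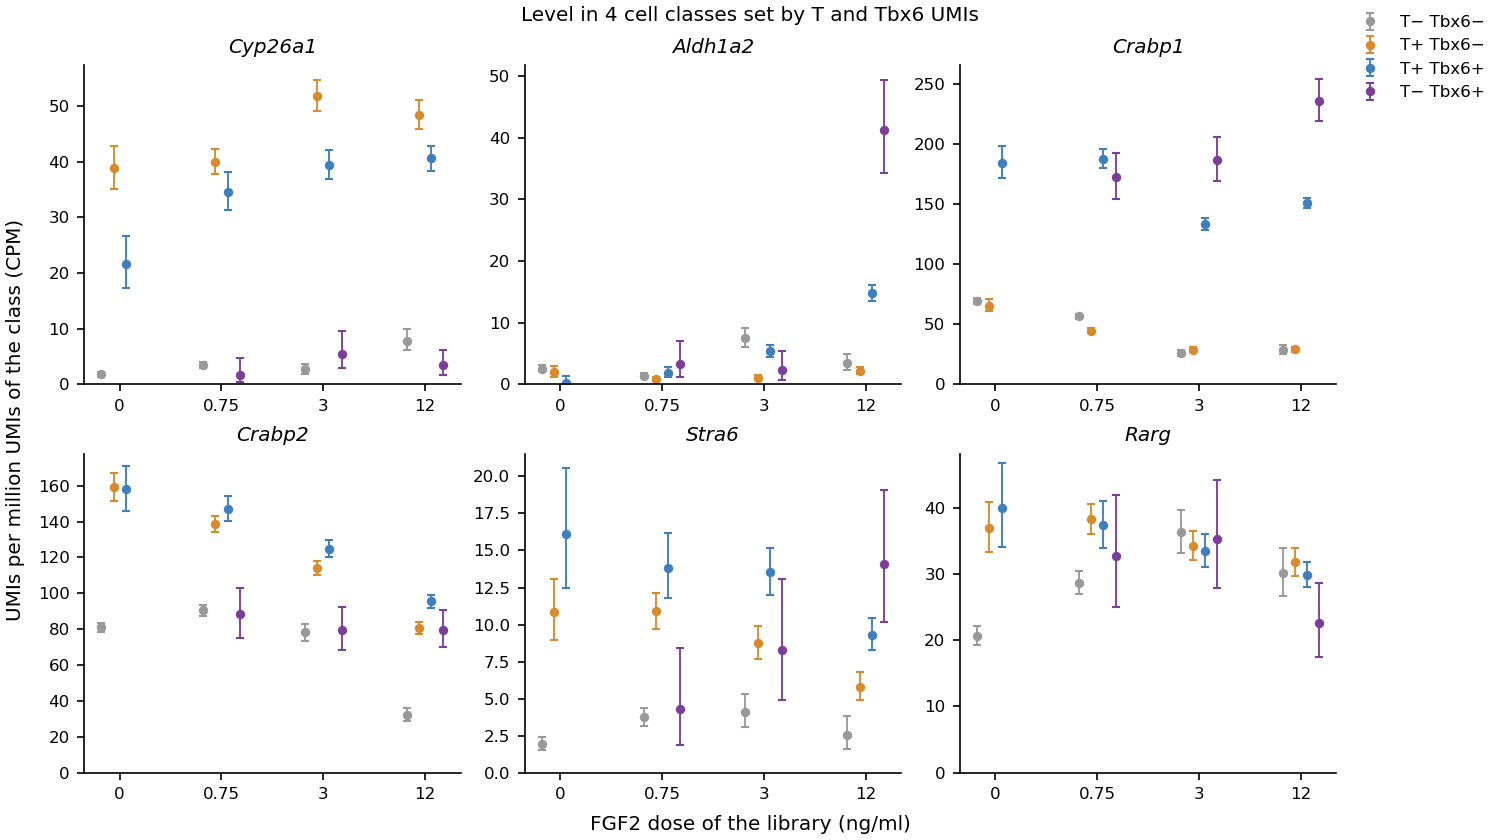
Levels of 6 genes (y axis, CPM of the class, starting at 0) in cells grouped by T and Tbx6 UMIs (colors) at each FGF2 dose (x axis); points are the level in a class of at least 50 cells and bars exact 95% Poisson intervals, with 1 library per dose. Cyp26a1 is high in both T-positive classes at every dose, Crabp1 in both Tbx6-positive classes, and Aldh1a2 in T-negative Tbx6-positive cells at 12 ng/ml, at 41.3 CPM.

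The same genes were seen together, or apart, in single cells. With cells thinned to 10000 UMIs at 12 ng/ml, Aldh1a2 and Crabp1 were detected together in 64 cells where independence gave 36.9, a ratio of 1.73 (1.33 to 2.21). Aldh1a2 and Cyp26a1 shared 7 cells against 18.3 (ratio 0.382, 0.153 to 0.786), and Aldh1a2 and Crabp2 shared 18 cells against 43.4 (ratio 0.414, 0.246 to 0.655). Cyp26a1 and Crabp1 shared 105 cells against 166 (ratio 0.634, 0.519 to 0.768). At full depth the last ratio was 0.871 and that of Aldh1a2 and Crabp2 was 0.693, both nearer to 1. The pair Cyp26a1 and Crabp2 was found together above independence without FGF2 (1.63, 1.29 to 2.03), at 0.75 ng/ml (1.39) and at 3 ng/ml (1.18, 1.03 to 1.34). Crabp1 and Crabp2 shared 405 cells against 313 in the FGFRi library (ratio 1.29, 1.17 to 1.43), 383 against 291 without FGF2 (1.31) and 577 against 468 at 0.75 ng/ml (1.23), whereas the intervals at 3 and 12 ng/ml included 1. Cells of a library share their depth distribution, and these ratios describe the libraries.

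Because the class sizes differed so much between doses, the change from 0 to 12 ng/ml was also computed at fixed class shares, over the 4 classes. For Cyp26a1 the ratio of 3.80 became 1.76 when the class levels of 12 ng/ml were combined with the class shares of 0 ng/ml, and 2.49 when the class levels of 0 ng/ml were combined with the shares of 12 ng/ml. Within T-positive cells it was 1.30 (1.18 to 1.43), and within T-negative cells, at low levels, 3.79 (2.74 to 5.26). For Crabp1, Stra6, Aldh1a2, Crabp2 and Dhrs3 the 2 computations lay on opposite sides of 1, and for Crabp1 and Stra6 the first also lay opposite to the ratio over all cells. The level of Crabp1 was 1.20 times as high at 12 as at 0 ng/ml over all cells, but 0.517 times at the shares of 0 ng/ml and 1.58 times with the shares alone changed, and it was lower within T-negative Tbx6-negative (0.415), T-positive Tbx6-negative (0.444) and T-positive Tbx6-positive cells (0.819), with T-negative Tbx6-positive cells as the exception (1.85, 1.49 to 2.33). Stra6 was at 1.57 over all cells, 0.806 at the shares of 0 ng/ml and 2.58 with the shares alone changed. Within T-positive cells it was 0.625 (0.525 to 0.748), and within T-negative cells, at low levels, it was 2.62 (1.87 to 3.66). Within the T-negative Tbx6-negative cells alone it was 1.32 (0.791 to 2.12). Crabp2 was at 0.803 over all cells, 0.458 at the shares of 0 ng/ml and 1.45 with the shares alone changed, and within T-positive cells it was 0.558 (0.531 to 0.587). For Dhrs3 the values were 0.766, 0.589 and 1.08 in the same order. For Aldh1a2 they were 4.30, 1.99 and 0.522, and the T-positive Tbx6-positive class rested on 1 UMI without FGF2. Rara was close to even by each measure, at 0.929 over all cells and 0.920 at fixed shares.

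**Figure D4:**
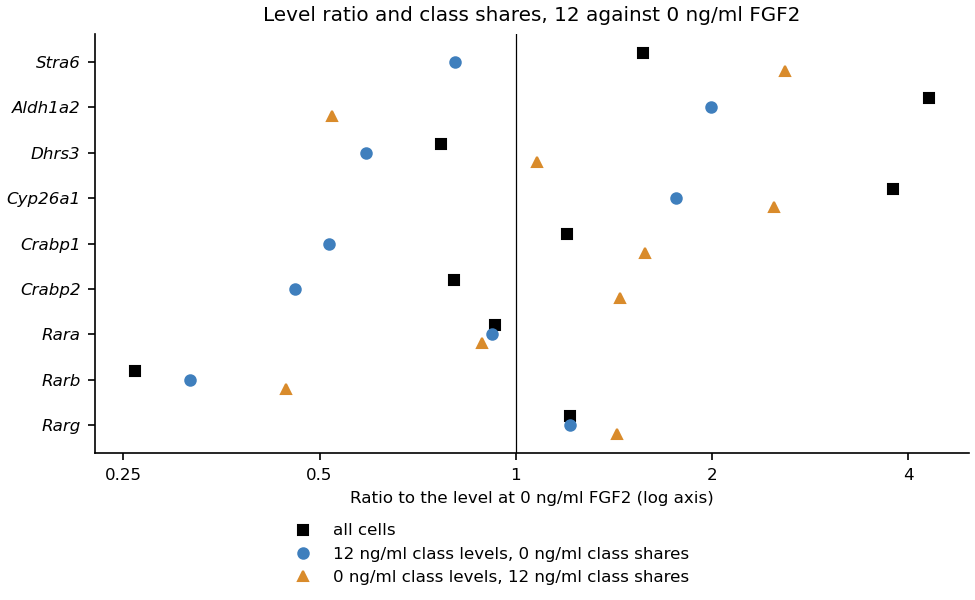
Ratio to the level at 0 ng/ml FGF2 (x axis, log axis) of each gene (y axis) over all cells at 12 ng/ml (black squares), with the 12 ng/ml class levels at the class shares of 0 ng/ml (blue circles) and with the 0 ng/ml class levels at the class shares of 12 ng/ml (orange triangles); no replicates, hence no error bars. For Crabp1 the black square lies at 1.20 and the blue circle at 0.517, on opposite sides of 1.

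Cells were divided as well by their cadherin UMIs, into those with Cdh1 (E-cadherin, of epithelial cells) and no Cdh2, and those with Cdh2 (N-cadherin, of mesenchymal cells) and no Cdh1. In the Cdh2-positive Cdh1-negative cells Stra6 was at 12.6, 16.1, 15.0 and 10.96 CPM along the FGF2 doses, against 0.470, 0.655, 0.929 and 1.10 CPM in Cdh1-positive Cdh2-negative cells. By the same rule of size, Cyp26a1, Crabp2 and Stra6 were higher in Cdh2-positive Cdh1-negative cells in 4 of 4 FGF2 libraries, with a background of 3.61%, 3.13%, 3.05% and 3.07% of genes from 0 to 12 ng/ml. Crabp1 was higher in 3 of these libraries, the exception being 0 ng/ml, where the ratio was 1.86 (1.73 to 1.99), Aldh1a2 at 12 ng/ml, with 13.4 against 0.400 CPM, and Rarg at 0 ng/ml, with 38.8 against 19.0 CPM (ratio 2.04, 1.80 to 2.31), just inside the limit. At 12 ng/ml Crabp1 was at 148 against 11.3 CPM. With the FGFRi, where few cells held T or Tbx6, Crabp1 was still divided, at 175 CPM in 625 Cdh2-positive Cdh1-negative cells and 32.3 CPM in 617 Cdh1-positive Cdh2-negative cells (ratio 5.42, 4.94 to 5.95, background 3.58%). Aldh1a2 was at 6.69 and 1.34 CPM in the same classes, whereas Crabp2, at 139 and 142 CPM, did not differ beyond counting error. Stra6 was at 2.60 and 0.233 CPM in these FGFRi classes (ratio 11.2, 4.05 to 42.9). Cyp26a1 went the other way there, at 1.36 and 2.74 CPM (ratio 0.498, 0.286 to 0.843). Both Stra6 and Cyp26a1 stood below 10 CPM in these classes, outside the rule of size.

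Likeness of single-cell levels to the 5 genes with at least 20 CPM was Pearson's r across the cells of each library, averaged over the 5 libraries. The candidates were the 7072 genes with at least 10 CPM in each of the 5 libraries. With the FGFRi the streak and nascent mesoderm markers reached at most 2.43 CPM and the presomitic and somitic markers at most 4.01 CPM. None of these markers, T and Tbx6 among them, was therefore a candidate. The candidates most like Cyp26a1 were Rspo3, Limch1 and Greb1. Its r with Rspo3, a gene of a secreted Wnt signaling enhancer, was between 0.282 and 0.548 in the FGF2 libraries and -0.030 in the FGFRi library. For Crabp1 they were Hmga2, Gpc3 and Plxna2, with r between 0.146 and 0.559 over the libraries, and for Crabp2 they were Hoxaas3, Ptma and Mdk, with r between 0.257 and 0.559. Rarg was most like Hoxaas3, Mllt3 and Hoxc9, with a mean r of at most 0.213. For Rara the highest mean r was 0.078, with Meis2, and in sparse counts this names no neighbor. Cells of a library share depth and cell types, and these values describe the data only.

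Of 22 further genes of retinoid uptake, metabolism and receptor function, 12 reached 10 CPM in the libraries compared from 0 to 12 ng/ml FGF2. Rdh10 was the 1 counted as lower, 1 was higher and 10 were past neither limit. Among all genes that reached 10 CPM, 4.04% were lower and 1.87% higher. The median log2 ratio of the 12 genes was 0.08, against 0.01 for all genes. Rdh10, which encodes the enzyme for the first oxidation of retinol, had 76.5 CPM with the FGFRi, then 32.4, 12.6, 9.19 and 10.2 CPM by increasing FGF2 dose. It was 2.36-fold (2.23 to 2.50) lower without FGF2 than with the FGFRi, as the 1 lower gene of 12 in that comparison (background 5.38%), and 2.56-fold (2.37 to 2.77) lower again at 0.75 ng/ml (background 1.41%). Its highest levels were thus in the libraries where Cyp26a1 was lowest. Rdh10 was lower in T-positive (log2 difference -1.003 ± 0.13, adjusted p = 0.000723) and in Tbx6-positive cells (-1.25 ± 0.17, adjusted p = 0.00146).

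Nrip1, which encodes a corepressor recruited by nuclear receptors, went from 156 CPM with the FGFRi to 83.3, 63.2, 51.1 and 45.9 CPM, a gradient with no step of 2-fold. The corepressor gene Ncor1 was between 154 and 180 CPM, and the retinoid X receptor gene Rxrb between 11.5 and 18.3 CPM. Of the other synthesis and breakdown genes, Aldh1a3 was between 8.55 and 14.1 CPM, above Aldh1a2 in each library. It passed neither the T test (log2 difference -0.15 ± 0.09, adjusted p = 0.241) nor the Tbx6 test (0.25 ± 0.16, adjusted p = 0.231). Cyp26b1 was highest with the FGFRi at 3.74 CPM and lowest at 12 ng/ml at 0.382 CPM, and Aldh1a1 and Cyp26c1 had at most 0.042 CPM. Rdh11 and Rdh14, listed for retinoid metabolism, were between 21.9 and 26.2 CPM and between 10.9 and 15.1 CPM. Adh5 was between 130 and 223 CPM. Fabp5, which can carry retinoic acid, was between 471 and 617 CPM, and the coregulator gene Rere between 69.1 and 80.4 CPM. In the class tests 6 of the 18 listed genes tested were higher and 3 lower in T-positive cells, and 6 of 18 were higher and 4 lower in Tbx6-positive cells, beside 21.1% and 22.7% of all genes for T and 19.2% and 22% for Tbx6, so that the lower genes were about as frequent as among all genes. Their median log2 difference was 0.03 for T and 0.11 for Tbx6, against 0.01 and 0.00 for all genes.

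Of 9 genes listed as known targets of retinoic acid, the HOX cofactor genes Meis1 and Meis2 were highest with the FGFRi. Meis1 was at 30.3, 13.0, 4.66, 2.07 and 2.60 CPM and Meis2 at 237, 96.9, 54.1, 34.7 and 45.4 CPM from the FGFRi library along the FGF2 doses. Both were at least 2-fold lower in the comparison of the FGFRi with 0 ng/ml and of 0 with 12 ng/ml, where 2 of 4 genes of the list that reached 10 CPM were lower and none was higher (5.38% and 2.62% of all genes in the first comparison, 4.04% and 1.87% in the other), and the median log2 ratio was -0.83 and -0.69 against 0.00 and 0.01 for all genes. Hoxb1 went the other way, at 0.021, 1.53, 2.99, 7.12 and 9.99 CPM. Tgm2 was at 7.32 CPM with the FGFRi and at most 1.44 CPM elsewhere, and Cdx1 and Stra8 were below 1 CPM in all libraries. The targets thus did not move as a group. Hoxb1 was higher in both T-positive (log2 difference 1.67 ± 0.28, adjusted p = 0.00235) and Tbx6-positive cells (2.15 ± 0.25, adjusted p = 0.000753). Meis1 was lower in T-positive cells alone of the 2 class tests (-0.91 ± 0.17, adjusted p = 0.00409, against -0.04 ± 0.22 for Tbx6), and the difference between the class tests was not tested. The levels of the marker lists given above also differed between the libraries, and their part in these values was not tested.

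**Figure D5:**
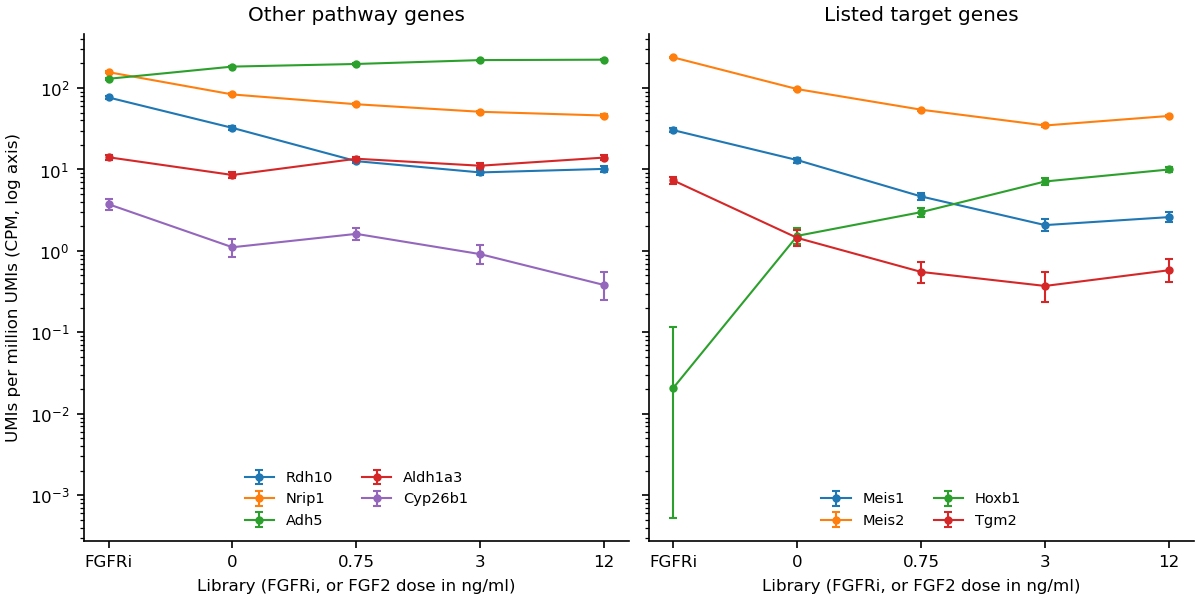
Levels of 5 other pathway genes (left) and 4 listed target genes (right) in the 5 libraries, ordered from the FGFRi to the highest FGF2 dose (x axis); the y axis is CPM on a log axis, points are the level of the 1 library per condition and bars exact 95% Poisson intervals. Rdh10 is between 76.5 and 9.19 CPM and Meis1 between 30.3 and 2.07 CPM, both highest with the FGFRi, whereas Hoxb1 is between 0.021 and 9.99 CPM and lowest there.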

How the data were processed

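The authors aligned the reads of each 10x Genomics 3′ library to mm10 with Cell Ranger, and deposited UMI counts per gene and called barcode, which were not normalized. The matrix headers name Cell Ranger 5.0.1, which differs from the version in the methods. Following the methods, cells were kept from 2500 detected genes upwards and up to 10% mitochondrial UMIs. No doublets were removed. Levels are summed UMIs scaled to 1000000, with exact Poisson, conditional and binomial intervals. Class tests used edgeR 4.0.16 in R 4.3.3 (TMM, quasi-likelihood), with DESeq2 1.42.0 as an alternative. Python 3.11.15, NumPy 2.4.6, SciPy 1.17.1 and pandas 2.3.3 were used, and figures were drawn with Matplotlib 3.10.9. On simulated counts, edgeR recovered 92.5% of genes changed 2-fold for T (15159 genes) and 100% for Tbx6 (14886 genes). False calls were 10 of 196 for T and 5 of 197 for Tbx6. The simulation gave all genes a common dispersion and each changed gene the same difference in every library. Differences in the data varied between libraries, so the simulation does not show how the test performs on them.

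The 9 genes, the lists and the tests were chosen with earlier results of these data known. Named genes were the 9 genes, the class markers, listed pathway and target genes with at least 10 CPM in any library and the 3 genes most like each gene with at least 20 CPM. Listed genes below 10 CPM were named after their values were seen. Positions and sequences are from GRCm38. Some listed genes are not reported here.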

Additional observations from a re-analysis of the deposited data

Results flagged for a closer look

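Aldh1a2 was flagged because its level by UMIs was lower in Tbx6-positive than in Tbx6-negative cells without FGF2 and higher with FGF2. Without FGF2 its level in Tbx6-positive cells was 0.0872 times (0.00219 to 0.495) that in Tbx6-negative cells, from 1 UMI in 135 Tbx6-positive cells. The ratio was 1.80 (1.12 to 2.82) at 0.75 ng/ml FGF2, 1.63 (1.26 to 2.11) at 3 ng/ml and 7.04 (5.61 to 8.92) at 12 ng/ml. These intervals take UMIs as independent and are too narrow here, because the Aldh1a2 UMIs gathered in few cells. The 127 UMIs without FGF2 lay in 46 cells, and at 0.75 ng/ml 1 cell held 19 of 104 UMIs. Whether the direction differed beyond the spread between cells was not tested. With 1 library per dose the difference between doses was not tested either. The 43 cells with at least 5 Aldh1a2 UMIs at 12 ng/ml comprised 36 Tbx6-positive cells, whereas 8 of the 9 such cells without FGF2 had neither T nor Tbx6. Of all cells, 49.7% were Tbx6-positive at 12 ng/ml, and 74.2% had neither T nor Tbx6 without FGF2.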

How the results depend on the processing

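With 1 library per condition, counting error and composition limit every comparison between libraries, and spread between cultures was not measured. Among the 9 genes, the counts past the 2-fold limit rested on few genes. With a minimum of 50 CPM, 0 passed from the FGFRi to 0 ng/ml, from 0 to 0.75 ng/ml and from 0 to 12 ng/ml. With a minimum of 5 CPM, 2 passed from the FGFRi to 0 ng/ml, 1 (Aldh1a2) from 3 to 12 ng/ml and 2 from 0 to 12 ng/ml. From the FGFRi to 0 ng/ml, 0 passed at the stricter mitochondrial limit and 2 with TMM factors, and a ratio of 1.5 let 1 pass from 0.75 to 3 ng/ml. Over all genes, in the order FGFRi to 0, 0 to 0.75, 0.75 to 3, 3 to 12 and 0 to 12 ng/ml, 675, 140, 69, 7 and 487 passed. A ratio of 1.5 gave 1845, 438, 262, 75 and 1067, a minimum of 50 CPM gave 212, 46, 13, 0 and 130, and a minimum of 5 CPM gave 109 from 0.75 to 3 ng/ml and 14 from 3 to 12 ng/ml. Of 315 recomputed level ratios of the 9 genes, 288 stayed within their intervals and 27 moved. The direction turned in 5, all of Rara or Dhrs3 and none past the 2-fold limit, 4 of them with each cell thinned to 10000 UMIs and 1 without the 5% of cells with most UMIs.

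The T test called 6711 genes, 4100 with classes drawn from thinned cells and 4388 to 6378 with 1 library left out. The Tbx6 test called 6173, and 4037 to 6631 with 1 library left out. Without the library as a replicate block the tests called 5154 and 4523 genes, and Dhrs3 and Aldh1a2 (T) and Crabp2 (Tbx6) no longer passed. Each condition had 1 library, so no pairing of libraries across conditions was possible. Of 218 recomputed class differences of the 9 genes, 192 kept direction and call. Crabp1 in the T test turned to -0.039 with classes from thinned cells. Cyp26a1 in the Tbx6 test turned to -0.16 with classes from thinned cells and to -0.11 with at least 2 Tbx6 UMIs. Rara, at 0.0065 in the Tbx6 test, turned to -0.028 (thinned), -0.018 (at least 2 UMIs), -4.06e-05 (DESeq2), -0.0062 (no filter), -0.026 (no block), -0.0049 (FGFRi included), -0.0097 (stricter mitochondrial limit) and -0.023 (without the 5% of cells with most UMIs), and lay between -0.027 and 0.058 with 1 library left out. Rarg passed the T test without the filter on low counts (adjusted p = 0.0150) and without the 3 ng/ml library (0.0213). Aldh1a2 passed the Tbx6 test with classes from thinned cells (adjusted p = 0.0165), from at least 2 UMIs (0.0213), without the filter (0.0336) and without the 5% of cells with most UMIs (0.0324), but not with DESeq2 (0.70). The causes were not tested.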
